A study of Homo sapiens with 4 samples.

Results

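The genes described here belong to the Wnt, TGF-beta, Notch and FGF signalling families and were followed after loss of METTL3, the enzyme that places N6-methyladenosine on messenger RNA. They were chosen by name alone: symbols starting with WNT, FZD, DVL, AXIN, TCF7, BMPR, ACVR, SMAD, SMURF, TGFB, LTBP, NOTCH, JAG, DLL, HEY, MAML or FGFR, or with LRP, BMP, HES or FGF and a digit. Of 199 symbols that meet this rule in the gene name table, 40 had a listed feature. With NOTCH2NL, a symbol found only in the isoform table, this makes 41 genes of 7012 listed in any table. Genes outside the tables were not analysed here. By family, 16 of the genes belong to TGF-beta and BMP signalling, 7 to FGF, 6 to Wnt, 6 to Notch and 4 to the LDL receptor family. The remaining 2, BMP2K and FGFR1OP2, share only a name with these pathways.

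RNA was sequenced from HepG2, an established human hepatoma line, in 2 groups of 2 libraries. The METTL3 knockdown group received an siRNA against METTL3 and the control group, titled mock, a scrambled siRNA. Oligofectamine carried the siRNA, with repeat doses after 48 and after 96 hours, and RNA was taken on day 7, poly(A) selected and sequenced from TruSeq libraries. The labels give no number of siRNA sequences. The replicates are called biological without word on separate cultures, so p-values measure the spread between these samples, which may be technical. In this bulk RNA, fewer cells of a kind and less RNA per cell cannot be told apart.

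Wnt ligands bind Frizzled receptors and stabilise beta-catenin, which activates genes with TCF factors such as TCF7L2. TGF-beta and activin ligands signal through receptor kinases to SMAD2 and SMAD3, and BMPs to SMAD1, SMAD5 and SMAD9. Latent TGF-beta binding proteins hold TGF-beta in the matrix, and SMAD6 inhibits the BMP branch. Jagged ligands on one cell trigger cleavage of NOTCH receptors on the next, and the freed part joins RBPJ to turn on HES and HEY repressors. FGFs activate the MAP kinase cascade through FGFR kinases. In liver these pathways are known for zonation, bile duct formation, fibrosis and iron control.

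Sequences of 3 promoters are shown because SMAD6 and HES4 are known targets of BMP and Notch signalling, and TGFB2 had the largest isoform rise. Each holds 300 bases around the start site, most of them upstream, from RefSeq on GRCh38.p14. Capitals mark a SMAD palindrome, GTCTAGAC, in SMAD6 (chr15:66701986-66702285, plus strand). In HES4 (chr1:1000048-1000347, minus strand) they mark the RBPJ core TTCCCAC in reverse complement. In TGFB2 (chr1:218345086-218345385, plus strand) they mark the E-box CACGTG.
SMAD6: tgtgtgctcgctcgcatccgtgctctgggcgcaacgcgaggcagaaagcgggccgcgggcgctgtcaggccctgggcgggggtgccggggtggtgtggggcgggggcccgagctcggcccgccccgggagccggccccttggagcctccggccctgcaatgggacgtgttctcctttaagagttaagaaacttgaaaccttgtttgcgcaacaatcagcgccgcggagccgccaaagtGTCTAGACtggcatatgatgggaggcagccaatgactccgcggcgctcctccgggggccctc
HES4: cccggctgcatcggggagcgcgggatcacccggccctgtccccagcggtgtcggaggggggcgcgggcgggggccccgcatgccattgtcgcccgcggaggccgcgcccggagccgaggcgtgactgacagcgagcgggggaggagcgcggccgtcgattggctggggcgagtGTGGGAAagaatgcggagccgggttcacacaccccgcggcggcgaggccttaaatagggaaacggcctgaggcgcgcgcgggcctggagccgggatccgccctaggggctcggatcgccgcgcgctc
TGFB2: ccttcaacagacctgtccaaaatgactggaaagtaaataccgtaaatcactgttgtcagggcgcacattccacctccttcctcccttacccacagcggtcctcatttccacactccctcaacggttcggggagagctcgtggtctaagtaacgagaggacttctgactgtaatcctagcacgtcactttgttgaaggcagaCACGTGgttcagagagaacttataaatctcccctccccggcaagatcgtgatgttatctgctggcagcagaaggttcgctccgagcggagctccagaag
The matches begin 12, 77 and 49 bases before the start site. The 3 motifs and the TCF/LEF core ATCAAAG were chosen after the values were seen and searched on both strands. No match overlaps another in these promoters. Of 35116 RefSeq promoters of this length, 0.202% hold the palindrome, 6.25% the RBPJ core, 7.26% the E-box and 2.62% the TCF/LEF core. Promoters of 29 of the 41 genes were matched by symbol. In these the palindrome was found in SMAD6 only, and the RBPJ core in HES4, FGFR4 and SMAD3. The E-box was found in TGFB2, FGFR4, SMAD3 and SMAD9, and the letters ATCAAAG in none. A match is a description of letters and not a bound site.

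Coding stretches of 6 transcripts are shown with GGACT, the core letters of the sequence that METTL3 prefers, in capitals. They were chosen as receptors, SMADs and ligands that moved in opposite directions: TGFBR1 and JAG1 were higher in the knockdown, and BMPR2, SMAD9, TGFBR2 and JAG2 were lower. Each is the coding match nearest the stop codon of the GENCODE 29 transcript with room for 25 bases.
TGFBR1: tgcagacttaGGACTggcagtaaga
JAG1: agtgccccgaGGACTatgagggcaa
BMPR2: ctgaatcgctGGACTgtgaagtcaa
SMAD9: attctgtcttGGACTtctttctaat
TGFBR2: agctgtaataGGACTgcccatccac
JAG2: gcggtgaggaGGACTccctggaggc
Counted from the A of the start codon, these matches begin at coding bases 1057, 1659, 2988, 940, 146 and 3564. BMPR2 holds 7 coding matches, JAG1 3, TGFBR1, SMAD9 and JAG2 2 each and TGFBR2 1. GENCODE 29 held 34 of the 44 member isoforms, 33 of them protein coding. On the transcript strand, GGACT was found in 7 of 10 higher and 21 of 23 lower members, or 70% and 91.3%, against 86.9% of all higher and 91.0% of all lower listed coding isoforms. All 3 WNT7B isoforms, HES4 and FGFR4 held none, and LRP1B held 34 in 16535 bases. The median was 0.57 matches per kilobase in higher and 0.72 in lower members, against 1.01 and 0.93 over all listed isoforms. These letters were not shown here to be methylated.

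METTL3 itself went from 955 to 241 normalized counts per the authors' deposited table (log2 fold change -1.99), lower in the knockdown as labelled. None of 14 hepatocyte and hepatoma markers, among them ALB and AFP, is in any table, so the cell type could not be checked on their levels. The gene table gives group means alone, with no replicate values. In it 17 of the genes are listed, 6 higher and 11 lower (64.7%) in the knockdown, against 41.3% higher and 58.7% lower among all 1977 listed genes. Recentring on the median listed gene, a log2 fold change of -1.10, turns FZD10 alone of these 17 to the other side. In each table the 2-fold limit on listing shapes this median, and any fall smaller than the median changes sign by construction. Such a change of sign therefore does not decide the direction of a feature. The median log2 fold change of the 17 was -1.15, and it was -1.10 over all listed genes with no group at 0. No deposited change under 2-fold is listed in any table. The median of a mostly lower set thus lies past that limit by construction, and such medians compare little. By share, the direction of the set as a whole was close to that of the table.

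**Figure D1:**
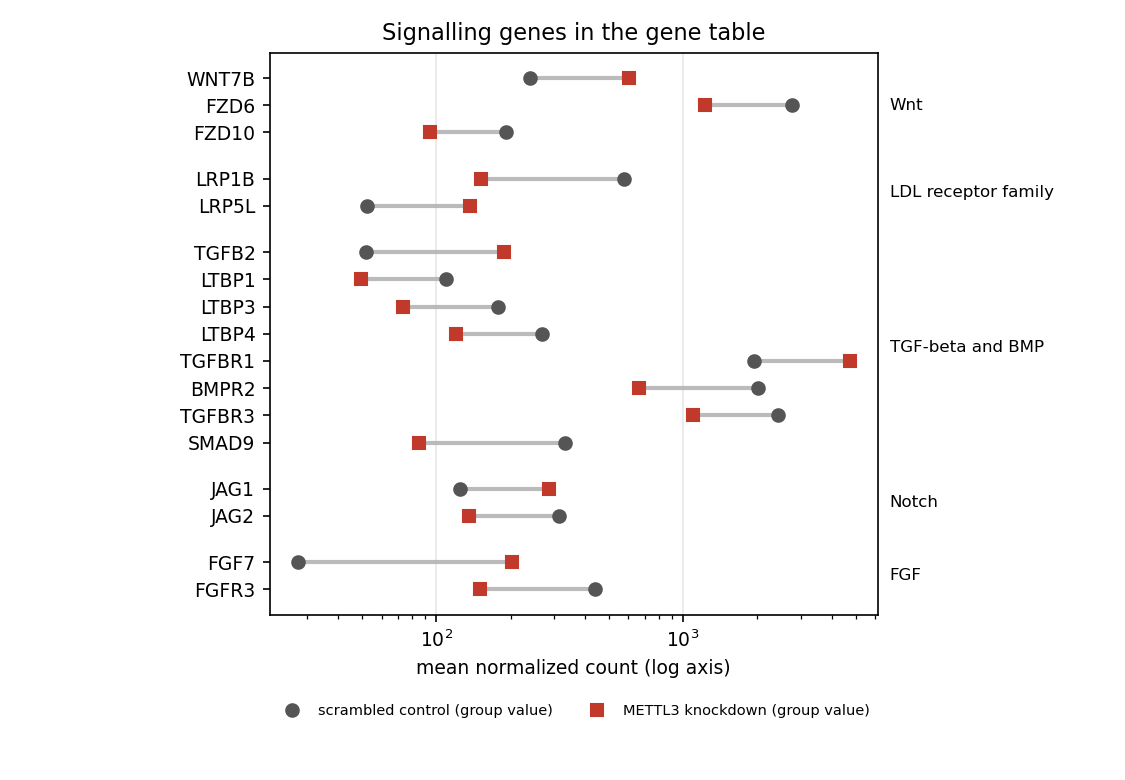
Group means of the 17 listed signalling genes in normalized counts on a log axis, grouped by family, with scrambled control as circles and METTL3 knockdown as squares. Squares lie to the right for 6 genes, led by FGF7 (27.4 to 203), and to the left for 11; FZD10 changes side on recentring.

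Among TGF-beta and BMP genes, the ligand TGFB2 and the type I receptor TGFBR1 rose, while the co-receptor, the BMP type II receptor, a BMP SMAD and 3 latent binding proteins fell. TGFB2, a secreted TGF-beta, went from 51.9 to 188 normalized counts per the authors' deposited table (3.61-fold, adjusted p = 9.41e-12). TGFBR1, the kinase that phosphorylates SMAD2 and SMAD3, went from 1943 to 4742 per the authors' deposited table (2.44-fold, adjusted p = 6.58e-65). It had the highest knockdown value of the 17, although counts of different genes are not scaled by length.

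The falls included BMPR2, the type II kinase receptor for BMPs, from 2011 to 663 normalized counts per the authors' deposited table (3.03-fold, adjusted p = 1.38e-75). SMAD9, which carries BMP signals to the nucleus, went from 333 to 85.1 per the authors' deposited table (3.91-fold, adjusted p = 1.39e-24). TGFBR3, betaglycan, which presents ligand to the type II receptor, went from 2431 to 1100 per the authors' deposited table (2.21-fold, adjusted p = 1.43e-25). SMAD9 had the largest fall of the 17 in fold, with LRP1B next.

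All 3 latent TGF-beta binding proteins that are listed fell by similar folds. LTBP1 went from 110 to 49.6 normalized counts, 2.21-fold, per the authors' deposited table (adjusted p = 0.000376). LTBP3 went from 178 to 73.4, 2.42-fold, per the authors' deposited table (adjusted p = 2.21e-06). LTBP4 went from 267 to 120, 2.22-fold, per the authors' deposited table (adjusted p = 7.05e-09).

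In the Wnt family 1 ligand was higher and 2 receptors were lower, of which FZD10 changes sign on recentring. WNT7B, a secreted ligand, went from 240 to 607 normalized counts per the authors' deposited table (2.52-fold, adjusted p = 3.67e-19). FZD6, a Frizzled receptor linked to planar polarity, went from 2757 to 1228 per the authors' deposited table (2.25-fold, adjusted p = 2.3e-52). FZD10 went from 191 to 94.0 per the authors' deposited table (2.03-fold, adjusted p = 0.00728), the change nearest to the 2-fold limit among the 17.

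The Notch ligands moved apart. JAG1, the ligand needed for bile duct formation, rose from 124 to 286 normalized counts per the authors' deposited table (2.30-fold, adjusted p = 6.55e-09). JAG2 fell from 315 to 135 per the authors' deposited table (2.33-fold, adjusted p = 3.82e-11). JAG2 was the more abundant by count in the control and JAG1 in the knockdown, without scaling by length.

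FGF7, a ligand for epithelial FGF receptors, had the largest change of the 17. It rose from 27.4 to 203 normalized counts per the authors' deposited table (7.41-fold, adjusted p = 1.6e-11). FGFR3, a receptor kinase, fell from 439 to 150 per the authors' deposited table (2.92-fold, adjusted p = 2.03e-10). FGF7 has near-identical partial copies in the genome, FGF7P3 among them, so its value is uncertain.

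The Wnt co-receptors LRP5 and LRP6 are not among the listed LDL receptor family members: LRP1B is a large endocytic receptor and LRP5L an LRP5-like gene. LRP1B fell from 578 to 152 normalized counts per the authors' deposited table (3.81-fold, adjusted p = 4.01e-38). LRP5L rose from 52.3 to 138 per the authors' deposited table (2.63-fold, adjusted p = 7.39e-06), and reads of LRP5 may be shared with it.

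Other genes of these pathways were taken from lists made by role. Of 55 further TGF-beta and BMP genes, 14 are in the gene table, 6 higher and 8 lower (16 in the isoform table, 8 higher, 7 lower and 1 with both), with a median log2 fold change of -1.10 against -1.10 over all listed genes. The BMP targets ID1, ID2 and ID3, inhibitors of helix-loop-helix factors, all fell. ID1 went from 1114 to 458, ID2 from 811 to 226 and ID3 from 1899 to 853 normalized counts per the authors' deposited table. Of the secreted BMP antagonists and modulators listed at gene level, 3 also fell: NOG from 24.3 to 5.55, CHRD from 28.6 to 9.64 and BMPER from 111 to 20.3 per the authors' deposited table (adjusted p = 0.00937, 0.0342 and 4.15e-12). The antagonist NBL1 had isoforms in both directions per the authors' deposited table, from 5.88 to 0.586 FPKM and from 5.89 to 12.7 FPKM. The activin subunit INHBA rose from 1.16 to 12.9 per the authors' deposited table (adjusted p = 0.029), at low counts. TWSG1, another extracellular BMP modulator, rose from 1131 to 2773 and the SMAD corepressor TGIF1 from 967 to 1958 per the authors' deposited table. GDF11, GDF15 and INHBE rose 2.90-fold, 4.07-fold and 3.49-fold per the authors' deposited table. The fibrillin FBN1, to which LTBPs bind, and GDF1 fell 2.07-fold and 3.11-fold per the authors' deposited table, and FBN1 changes sign on recentring.

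Beside these, 3 of 8 fibroblast and stellate cell markers are in the gene table, and all fell: COL3A1 from 2531 to 880, DCN from 673 to 108 and LUM from 8006 to 1627 normalized counts per the authors' deposited table. The endothelial cadherin CDH5 rose 7.11-fold, the monocyte marker CD14 from 4.65 to 24.8 and the synaptic SYP from 27.0 to 69.2 normalized counts, per the authors' deposited table. The macrophage marker CD68 had an isoform that fell 2.20-fold per the authors' deposited table. The defining markers COL1A1, COL1A2, PDGFRB, PECAM1 and PTPRC are in no table, so a summed level per group could not be given. The part of such markers in the changes above was not tested.

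Of 64 further Wnt genes, 7 are in the gene table, 5 higher and 2 lower, against 41.3% higher and 58.7% lower of all listed genes. Of the list, 19 genes have listed isoforms, 9 with higher isoforms only, 6 with lower ones only and 4 with both. Among all listed isoforms 46.7% were higher and 53.3% lower. Those with a lower isoform include LGR4, which went from 33.3 to 9.82 FPKM per the authors' deposited table and was not listed at gene level. RSPO3, which amplifies Wnt signals, rose from 15.6 to 207 and ZNRF3, a ligase that removes Frizzled receptors and a Wnt target, from 142 to 453 normalized counts per the authors' deposited table. CCND1, TLE1 and PRICKLE1 rose 2.28-fold, 2.14-fold and 2.30-fold per the authors' deposited table. NOTUM, a secreted inhibitor and Wnt target, fell from 123 to 22.1 and DKK3, of the Dickkopf family, from 681 to 224 per the authors' deposited table. Wnt targets in the list thus went both ways, ZNRF3 and CCND1 higher and NOTUM lower.

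Of 39 further Notch genes, 13 are in any table and 4 in the gene table, where all 4 fell, against 58.7% of all listed genes. LFNG and MFNG, glycosyltransferases that modify NOTCH receptors, went from 35.7 to 7.74 and from 50.9 to 22.4 normalized counts per the authors' deposited table. CNTN1, a NOTCH-binding adhesion protein, fell 3.60-fold and the acetyltransferase KAT2B 2.38-fold per the authors' deposited table. Of the list, 12 genes have listed isoforms, 2 with higher isoforms only, 7 with lower ones only and 3 with both. Over all listed isoforms 46.7% were higher and 53.3% lower. FBXW7, the ligase that marks cleaved NOTCH for decay, had an isoform that rose from 0.424 to 4.04 FPKM, and DTX2, of the Deltex family, one that rose from 2.69 to 7.10 FPKM, per the authors' deposited table. The Notch list was thus lower throughout in the gene table but mixed by isoform.

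Of 42 further FGF genes, 14 are in any table and 3 in the gene table, where all 3 rose, against 41.3% of all listed genes. Each of the 3 is a feedback or target gene of the MAP kinase cascade. DUSP6, a phosphatase of ERK, went from 70.9 to 276, the factor ETV4 from 76.4 to 283 and the inhibitor SPRY4 from 32.3 to 74.1 normalized counts per the authors' deposited table. Other growth factors use the same cascade. Of the list, 13 genes have listed isoforms, 7 higher and 6 lower, against 46.7% and 53.3% of all listed isoforms. Lower isoforms included the inhibitor SPRED1 (4.46-fold), the GTPase HRAS (4.37-fold) and the FGF receptor adaptor FRS2 (2.89-fold) per the authors' deposited table.

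**Figure D2:**
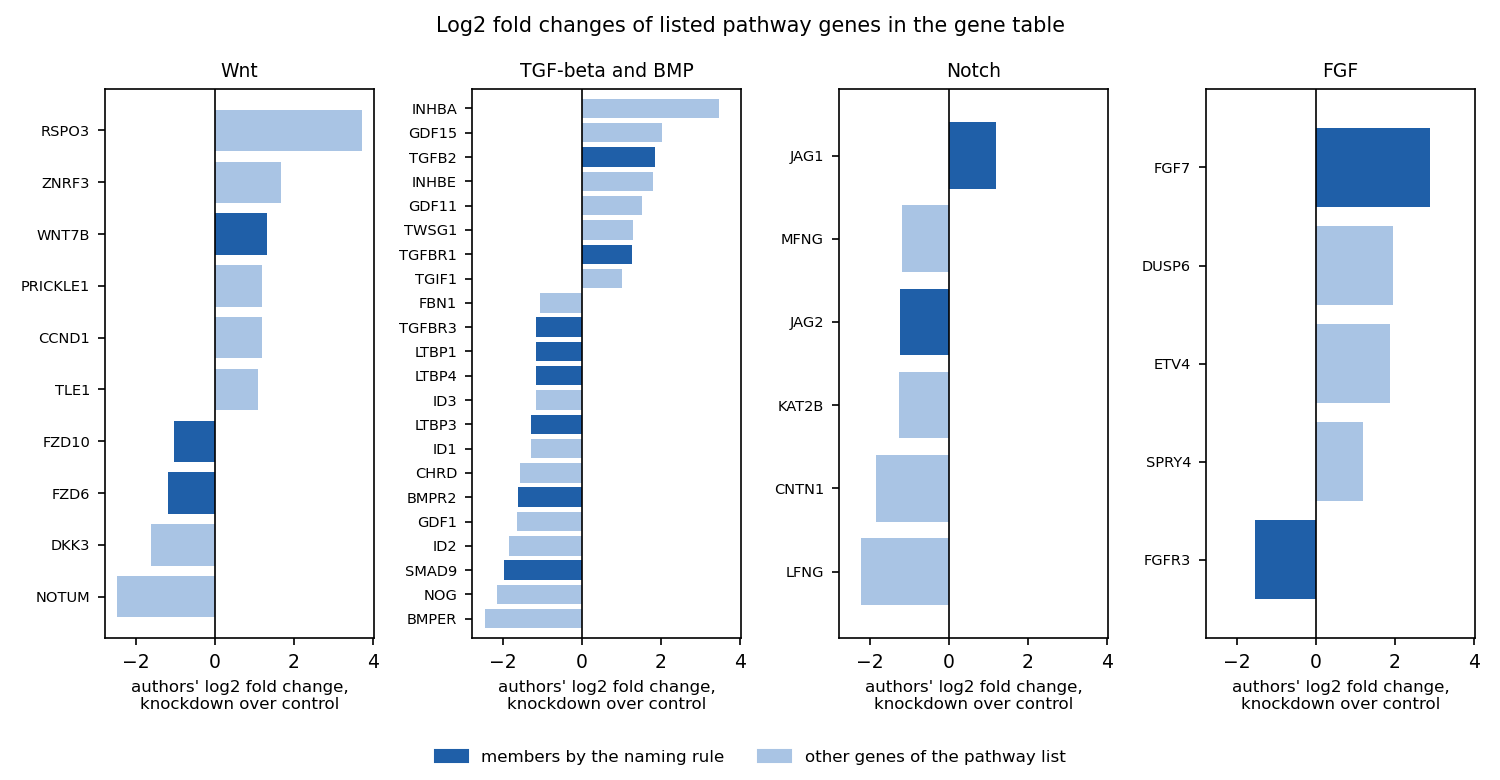
Log2 fold changes of knockdown over control for genes of the Wnt, TGF-beta and BMP, Notch and FGF pathways in the gene table, with genes of the naming rule in dark bars and other pathway genes in light bars. In the TGF-beta and BMP panel, ID1, ID2, ID3, BMPR2, SMAD9, TGFBR3, LTBP1, LTBP3, LTBP4, NOG, CHRD, BMPER, FBN1 and GDF1 lie on the lower side. TGFB2, TGFBR1, GDF11, GDF15, INHBE, TGIF1, TWSG1 and INHBA, the last at low counts (1.16 to 12.9), lie on the higher side. FZD10 and FBN1 change side on recentring.

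Isoforms were listed with 1 FPKM value per group, a level scaled by transcript length. Of the 41 genes, 32 had listed isoforms, 44 in all. Of these 14 were higher and 30 lower (68.2%), against 46.7% and 53.3% of all 7251 listed isoforms, and SMAD6 changes sign on recentring. By gene, 10 had only higher isoforms, 21 only lower ones and TCF7L2 had both. All 15 genes listed in both the gene and isoform tables went the same way, which comes from the same reads and is no separate evidence. The median log2 fold change was -1.18 over members and -1.10 over all listed isoforms with no group at 0.

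**Figure D3:**
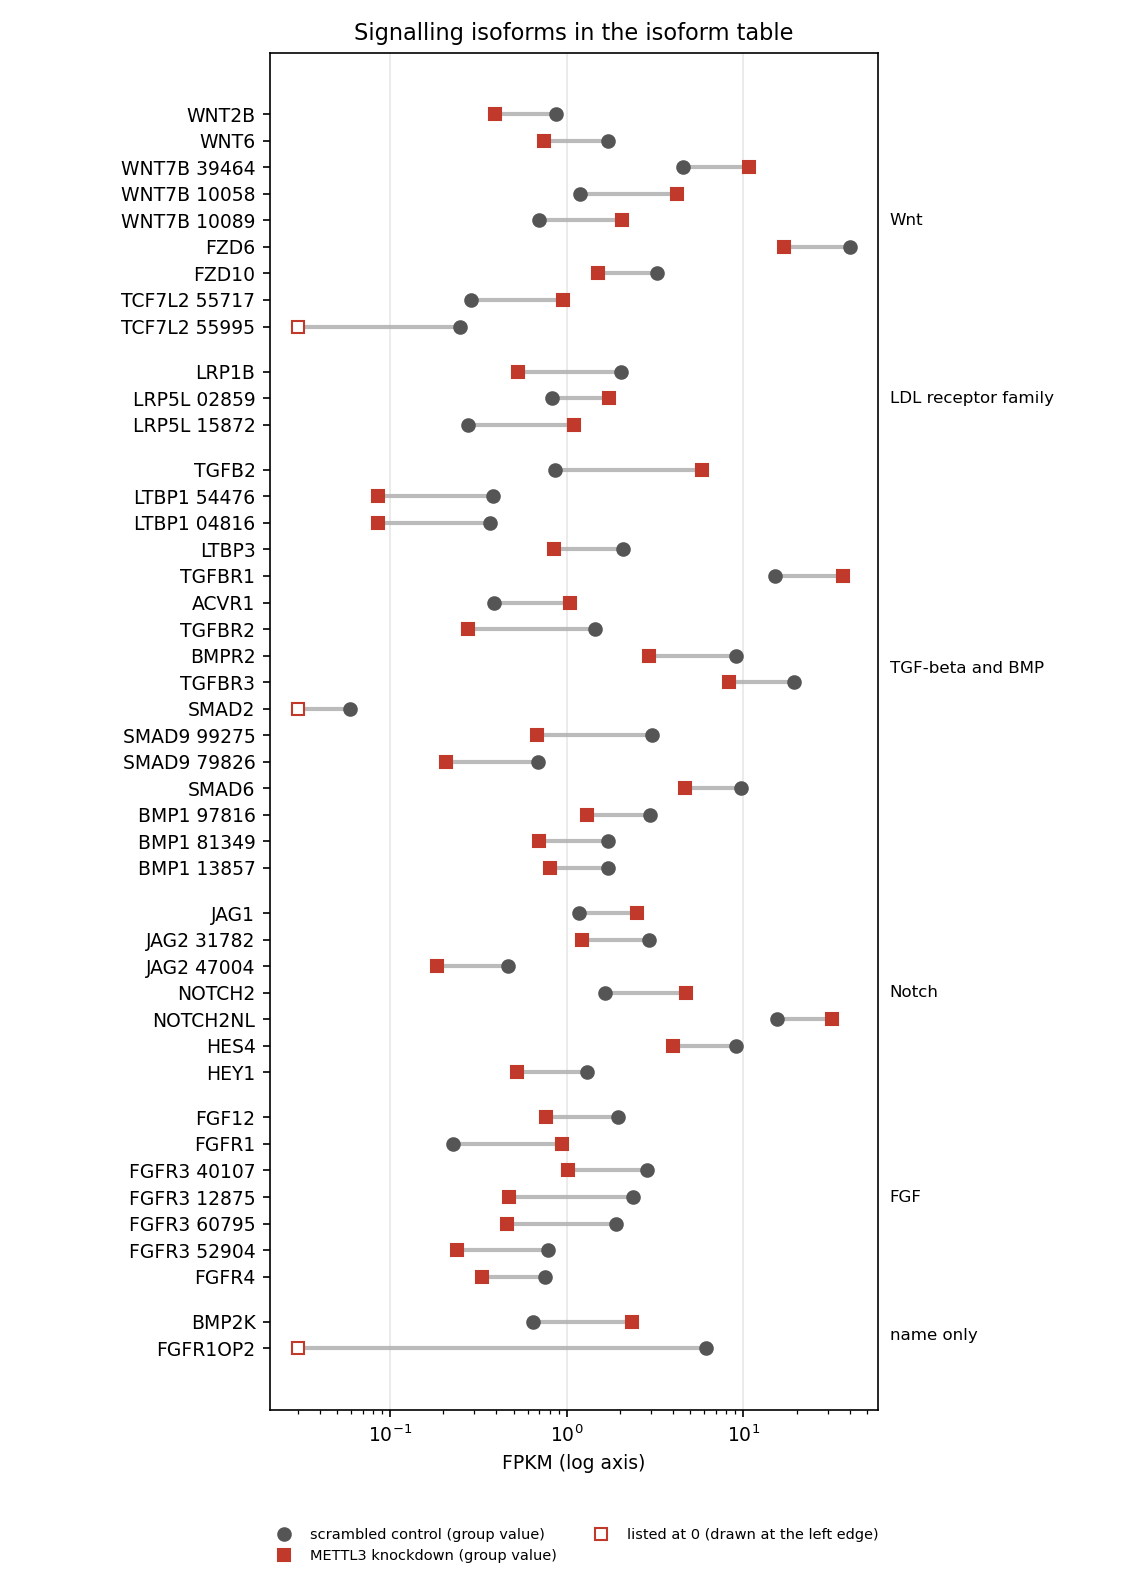
FPKM of the 44 listed signalling isoforms on a log axis, with scrambled control as circles and METTL3 knockdown as squares; the number after a symbol is the end of its transcript identifier. The 3 open squares mark isoforms listed at 0 in the knockdown. SMAD6, which changes sign on recentring, is drawn lower.

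The isoform table added a type II receptor, an inhibitory SMAD and a protease to the TGF-beta and BMP genes. TGFBR2, the receptor that binds TGF-beta first, had an isoform that fell from 1.44 to 0.276 FPKM per the authors' deposited table (5.22-fold, adjusted p = 6.58e-12). Its partner TGFBR1 went the other way, from 15.1 to 36.8 FPKM per the authors' deposited table. TGFB2 rose from 0.854 to 5.83 FPKM per the authors' deposited table (6.82-fold), more than its gene count (3.61-fold). ACVR1, a type I receptor for BMPs, had an isoform that rose from 0.387 to 1.05 FPKM per the authors' deposited table. Endoglin (ENG), a TGF-beta co-receptor like TGFBR3, had an isoform that went up from 1.64 to 3.75 FPKM per the authors' deposited table (2.29-fold, adjusted p = 0.000134). The listed type I receptors, TGFBR1 and ACVR1, were higher and the type II receptors, TGFBR2 and BMPR2, lower. The co-receptors went both ways. ACVR1, TGFBR2 and ENG were listed by an isoform only and not at gene level.

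SMAD6, the BMP-induced inhibitor, went from 9.63 to 4.66 FPKM per the authors' deposited table, a 2.06-fold fall that changes sign on recentring. Both SMAD9 isoforms fell, from 3.03 to 0.675 and from 0.686 to 0.208 FPKM, per the authors' deposited table. An isoform of SMAD2 at 0.0593 FPKM in the control was listed at 0 in the knockdown per the authors' deposited table, a level too low to read. BMPR2 fell from 9.09 to 2.90 FPKM and TGFBR3 from 19.3 to 8.31 FPKM per the authors' deposited table. LTBP1 had 2 isoforms, at 0.384 and 0.368 FPKM in the control, that fell 4.49-fold and 4.30-fold, more than its gene count, and LTBP3 fell 2.47-fold, per the authors' deposited table. All 3 listed isoforms of BMP1, a metalloprotease that processes procollagen and is no BMP ligand, fell by 2.14-fold to 2.48-fold per the authors' deposited table.

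Among Wnt ligands WNT7B had 3 isoforms, all higher, the main one going from 4.57 to 10.8 FPKM per the authors' deposited table. The others went from 1.19 to 4.20 and from 0.694 to 2.06 FPKM per the authors' deposited table. WNT6 fell from 1.72 to 0.739 and WNT2B from 0.866 to 0.391 FPKM per the authors' deposited table (adjusted p = 0.00875 and 0.0213). FZD6 fell from 40.0 to 17.0 FPKM, the highest control level of any member isoform, and FZD10 from 3.22 to 1.50 FPKM per the authors' deposited table. TCF7L2, the nuclear partner of beta-catenin, had ENST00000355717 higher, from 0.286 to 0.956 FPKM, and ENST00000355995 listed at 0.250 in the control and at 0 in the knockdown, per the authors' deposited table. Its gene was not in the gene table. An isoform of beta-catenin itself, CTNNB1, rose from 14.4 to 45.9 FPKM per the authors' deposited table. CTNNB1 too was not listed at gene level. Exon 22 of CTNNB1, the only one listed for it, held 375 and 387 normalized counts in the 2 controls and 209 and 183 after knockdown, a log2 fold change of -0.96 (adjusted p = 0.00451 by limma). With libraries shifted to the same median it was -0.044 (adjusted p = 0.812 by limma). The medians were taken over the listed exons, 67.5% of them lower, so the shift raises every log2 fold change.

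Of the Notch genes, JAG1 rose from 1.17 to 2.49 FPKM and both JAG2 isoforms fell, from 2.91 to 1.22 and from 0.465 to 0.184 FPKM, per the authors' deposited table. One NOTCH2 receptor isoform rose from 1.64 to 4.71 FPKM and NOTCH2NL from 15.5 to 31.6 FPKM per the authors' deposited table. NOTCH2NL is a partial copy of NOTCH2, so their reads cannot be told apart with confidence. The target repressors HES4 and HEY1 fell, from 9.07 to 3.99 and from 1.30 to 0.524 FPKM per the authors' deposited table (adjusted p = 3.33e-05 and 0.00402). HES1, the best known target, is in no table. LFNG had 2 isoforms that fell 11.1-fold and 6.01-fold per the authors' deposited table, from levels under 1 FPKM.

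FGFR3 had 4 listed isoforms, all lower. ENST00000340107 fell from 2.86 to 1.02 FPKM, ENST00000312875 from 2.36 to 0.470, ENST00000260795 from 1.91 to 0.459 and ENST00000352904 from 0.787 to 0.238 FPKM per the authors' deposited table. An isoform of FGFR4, the main hepatocyte FGF receptor, fell from 0.750 to 0.332 FPKM per the authors' deposited table. For FGFR1, an isoform rose from 0.227 to 0.940 FPKM per the authors' deposited table. FGF12, an intracellular FGF homologue that binds sodium channels, fell from 1.96 to 0.764 FPKM per the authors' deposited table. Neither FGFR1 nor FGFR4 was listed at gene level. The listed receptor isoforms thus split, FGFR1 higher and FGFR3 and FGFR4 lower, at levels under 3 FPKM per isoform.

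LRP1B fell from 2.02 to 0.528 FPKM and the 2 LRP5L isoforms rose 2.08-fold and 3.95-fold per the authors' deposited table. Of the genes that share only a name, the kinase BMP2K had an isoform that rose from 0.647 to 2.33 FPKM per the authors' deposited table. FGFR1OP2, known as a fusion partner of FGFR1, had an isoform at 6.13 FPKM in the control that was listed at 0 in the knockdown per the authors' deposited table.

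Introns were listed with a group mean of normalized counts and no replicate values. Of 13 listed introns in 11 of the genes, 3 were higher and 10 lower (76.9%), against 28.3% and 71.7% of all 2672 listed introns, and introns 1 and 4 of SMAD6 change sign on recentring. The median log2 fold change was -1.44 over these introns and -1.37 over all listed introns with no group at 0. All 4 genes with both a gene and an intron listing (FZD6, LRP5L, LTBP1 and LTBP3) went the same way in both.

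**Figure D4:**
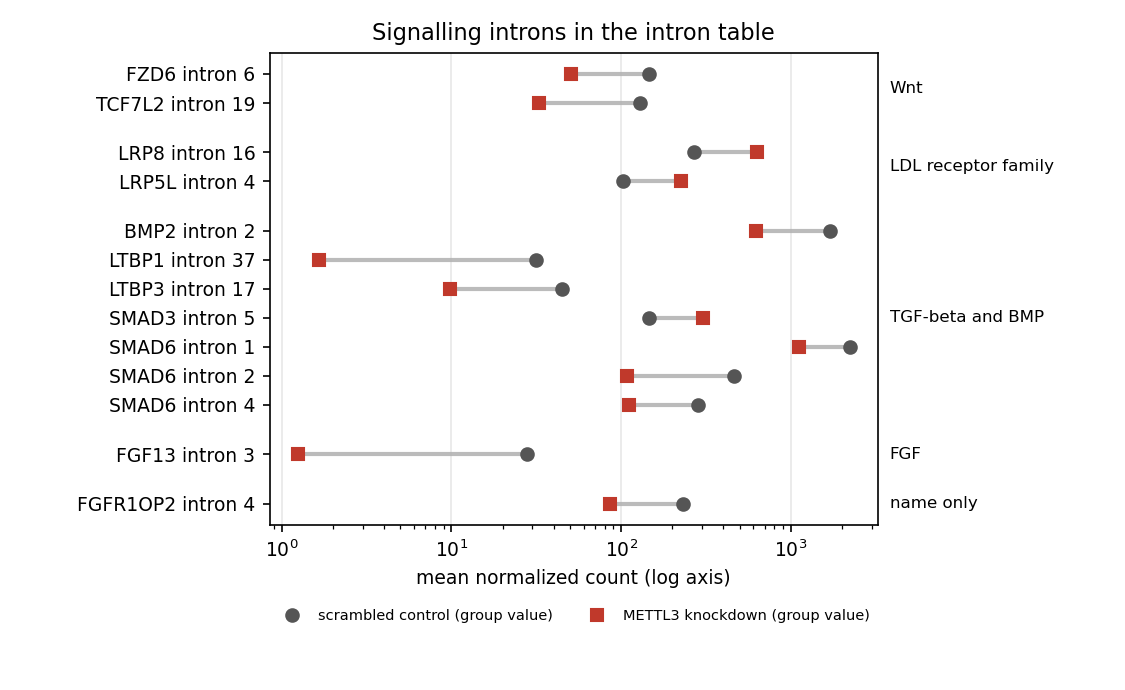
Group means of the 13 listed signalling introns in normalized counts on a log axis, with scrambled control as circles and METTL3 knockdown as squares. FGF13 intron 3 (27.8 to 1.24) and LTBP1 intron 37 (31.7 to 1.66) show the widest gaps; SMAD6 introns 1 and 4 change side on recentring.

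Listed introns of SMAD6 and BMP2 were lower, of which introns 1 and 4 of SMAD6 change sign on recentring. SMAD6 had 3 listed introns: intron 1 went from 2227 to 1113, intron 2 from 462 to 108 and intron 4 from 283 to 111 normalized counts per the authors' deposited table (adjusted p = 2.67e-19, 2.21e-20 and 3.95e-05). Intron 2 fell by more than the median listed intron (4.29-fold) and so kept its direction on recentring by construction. Intron 2 of the ligand gene BMP2 fell from 1694 to 623 normalized counts per the authors' deposited table (2.72-fold, adjusted p = 2.68e-28). BMP2 is in neither the gene nor the isoform table. Intron 5 of SMAD3, which carries TGF-beta signals, went the other way, from 147 to 302 per the authors' deposited table (adjusted p = 0.00312). Intron 37 of LTBP1 fell 19.1-fold and intron 17 of LTBP3 4.55-fold per the authors' deposited table, from 31.7 and 44.6 normalized counts.

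In Wnt genes, intron 19 of TCF7L2 fell from 130 to 32.7 and intron 6 of FZD6 from 146 to 50.3 normalized counts per the authors' deposited table. Intron 16 of the reelin receptor LRP8 rose from 270 to 631 and intron 4 of LRP5L from 103 to 226 per the authors' deposited table. Intron 4 of FGFR1OP2 fell from 230 to 86.5 normalized counts per the authors' deposited table (2.66-fold), beside the isoform listed at 0. Intron 3 of FGF13, an intracellular FGF homologue, fell from 27.8 to 1.24 per the authors' deposited table, the largest fold of all listed member introns, at a low count.

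The exon table gives each library. Of its 474 exons 3 are of these genes, 2 higher and 1 lower by group means, against 32.5% higher and 67.5% lower of all listed exons. All 3 passed the limma test at an adjusted p of 0.05, as did 96.2% of all listed exons, which the authors had chosen from the same libraries. At this group size the smallest p that an exact permutation test of 1 exon can give is 0.333. Exon 2 of LRP10, a receptor that traffics from the trans-Golgi, was listed at 0 in both control libraries. It stood at 16.5 and 11.1 normalized counts in the knockdown libraries (13.8 ± 3.79, SD, n = 2; limma adjusted p = 0.000577). The groups did not overlap in this exon, nor in 98.9% of all listed exons, which were listed for differing between these libraries. The LRP10 gene itself is not in the gene table.

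Exon 1 of the locus that joins the pseudogene FGF7P3 with a gene without a symbol was at 27.7 and 34.5 in the control and at 122 and 98.4 normalized counts in the knockdown libraries. This is 31.1 ± 4.83 against 110 ± 17.0 (SD, n = 2), or 1.80 ± 0.21 on the log2 scale (SE, adjusted p = 0.00187 by limma). With libraries shifted to the same median it was 2.71. The exon was higher in both knockdown libraries, as was the FGF7 gene, with which the copy can share reads.

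Exon 20 of the locus that joins BMP6, a BMP that controls hepcidin and iron in the liver, with BLOC1S5 was at 57.8 and 68.0 in the control and at 33.0 and 33.4 normalized counts in the knockdown libraries. The log2 fold change was -0.90 ± 0.16 (SE, adjusted p = 0.00602 by limma). Both knockdown libraries were lower, again as the listing of the exon nearly fixes. When libraries were shifted to the same median the value was 0.016 (limma adjusted p = 0.930), and without knockdown replicate 1 or 2 the limma adjusted p was 0.0515 or 0.0512. The medians of that shift were taken over the listed exons, 67.5% of them lower, so it raises the log2 fold change of every exon. The exon cannot be given to one of the 2 genes from the table.

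**Figure D5:**
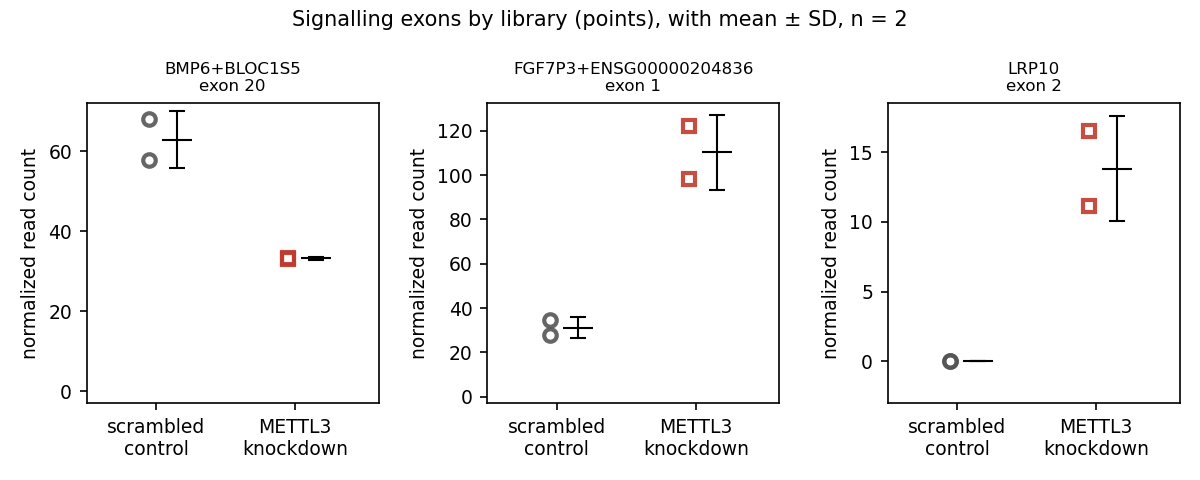
Normalized read counts of the 3 listed signalling exons in each library, with the mean and SD of each group (n = 2) beside the points. Exons of LRP10 and the FGF7P3 locus are higher in both knockdown libraries, and the BMP6+BLOC1S5 exon is lower. A shift of the libraries to the same median over the listed exons, most of them lower, brings the BMP6+BLOC1S5 log2 fold change to 0.016.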

How the data were processed

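RNA of 4 HepG2 libraries was measured, 2 per group. Per the submitters' processing notes the build was hg18 and the tools, listed with no role or order, were Cufflinks, Cuffdiff 1.0.3, HTSeq, DESeq 1.5.24, TopHat 1.2.0 and CASAVA 1.8. Every table lists only features with the authors' adjusted p under 0.05 and at least 2-fold by the authors' own fold change. For exons this differs from the ratio between groups, which can be under 2-fold, and its unit is not stated. The deposited log2 fold change was -1.39 for the BMP6+BLOC1S5 exon and 1.01 for the FGF7P3 exon, against -0.90 and 1.80 by limma. Genes and introns have a normalized signal per group, deposited as a scaled mean read count, per the file headers. The exon table holds such a normalized signal per library, per the file headers. The authors deposited FPKM values per group for isoforms, whose natural log ratio was converted here to log2. The fold ratio, log2 fold change and p-values are those the authors deposited. Folds in the text are ratios of the deposited group values.

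Gene IDs were named from the gene name table (3461 of 3807 IDs matched). The 474 exons were fitted together on log2(value + 1) by limma 3.58.1 (R 4.3.3) with Benjamini-Hochberg adjustment; a fold on this scale understates low exons. The limma step was tested on simulated data. Since only called features are listed, the background is the share of listed features in a direction. Library totals are unknown. The direction of an exon is that of its group means. One gene of the pathway lists is not reported here. Members and lists were chosen with earlier results of these data known. By the rule for named genes, every member in the gene and exon tables is named, and isoforms and introns by overlap with them or by size. Alternatives were stricter p, minimum levels, pseudocounts, recentring, 1 feature per gene, leaving out a library and a replicate block.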

Additional observations from a re-analysis of the deposited data

How the results depend on the processing

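The 6 higher genes and 3 higher introns kept their counts under every alternative run, although recentring on a negative median could not lower these counts. Subtracting the median log2 fold change of a table, which lies near the 2-fold limit on the lower side as nothing smaller is listed, left 0 of 11 lower genes, 8 of 30 lower isoforms and 2 of 10 lower introns past 2-fold. This subtraction also turns any fall smaller than the median to the other side by construction, so it does not decide direction. A pseudocount of 1 FPKM left 6 higher and 7 lower isoforms, and a mean of at least 1 FPKM left 19 lower ones. Of the 3 exons, 1 has a mean of 50 normalized counts or more, and it passed, with 271 of 284 such exons against 456 of 474. Shifting libraries to the same median of the listed exons, most of them lower, turned the BMP6+BLOC1S5 exon to 0.016. By construction this shift raises the log2 fold change of every exon. Leaving out 1 library at a time gave 2 to 3 exons past the threshold and log2 fold changes of -1.01 to -0.78 for BMP6+BLOC1S5, 1.64 to 1.95 for FGF7P3 and 3.60 to 4.13 for LRP10. There the lone library of a group is assumed to vary like the other group. The LRP10 value depends on the pseudocount, 4.81 with 0.5 and 1.90 with 5, and is no bound on the fold. Same-numbered libraries did not deviate together over the exons (correlation 0.0012). With the replicate block all 3 exons passed, with log2 fold changes of -0.90, 1.80 and 3.87 (limma adjusted p = 0.0165, 0.00505 and 0.00162).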
